A study of Mus musculus with 8 samples.

Results

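The Bcl2 family sets whether a cell lives or dies at the mitochondrion, and 10 of its genes were followed here by name: the pro-survival genes Bcl2, Bcl2l1 and Mcl1, the effectors Bax and Bak1, and the BH3-only genes Bcl2l11, Bid, Bbc3, Pmaip1 and Bmf. RNA of these genes was measured in sorted pre-B cells, where they are 10 of the 11845 genes with a mean level of at least 1 TPM (a transcript level per length, scaled to a fixed total in each library). Accessible chromatin of the same genes was measured in LSK cells (lineage-negative, Sca-1+, c-Kit+ bone marrow cells, which hold the haematopoietic stem cells and the earliest progenitors). In these cells the authors' annotation assigned to the 10 genes 22 of 27352 MACS2 peaks in WT replicate 1 and 56 of 57739 in WT replicate 2. Dido1∆E16 replicate 1 had 21 of 13208 peaks and Dido1∆E16 replicate 2 had 14 of 16329. The study asked how loss of Dido3, the largest product of Dido1, changes B-cell development, including the survival of B-cell precursors.

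The Dido1∆E16 mice carried 1 Dido1 allele without exon 16 and 1 allele with a floxed exon 16 (Dido1 flE16/∆E16), together with iCre Vav1, a Cre recombinase driven by the Vav1 promoter, which is active in haematopoietic cells, and the R26R-EYFP reporter. The WT controls were littermates with 1 floxed and 1 intact allele (Dido1 flE16/+) and carried the same Cre and reporter, so every group had a floxed allele and Cre. All mice were C57BL/6, aged 6 to 10 weeks. Pre-B cells were sorted by B-lineage surface markers as B220+ IgM- cells, a gate that also holds pro-B cells, and each RNA library came from a pool of mice. There were 2 WT and 2 Dido1∆E16 libraries of each kind, and p-values measure the spread between these libraries. For LSK cells the labels give these 2 libraries a genotype, while the methods name 3.

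Pro-survival proteins hold the effectors Bax and Bak1 in check. When effectors are freed or activated, they open the outer mitochondrial membrane, cytochrome c leaves, and the apoptosome starts the caspases. BH3-only proteins carry the death signal: they bind pro-survival proteins, and some of them activate the effectors directly. In the B lineage the balance is known to shift with the stage, since IL-7 signalling and the pre-B-cell receptor keep precursors alive while cells with a failed receptor are removed.

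The genotype labels were checked at the deleted exon. Exon 16 of Dido1 (chromosome 2, 180657963 to 180662583, GRCm38/mm10) had a coverage, scaled to TPM, of 24.6 and 21.8 in the WT pre-B libraries and of 0.295 and 0.0843 in the Dido1∆E16 libraries. All 4 pre-B libraries held B-lineage RNA: Cd79a lay between 3648 and 4476 TPM and Cd79b between 3393 and 4458 TPM. The T-cell genes Cd3e, Cd3g, Cd4 and Cd8a and the NK-cell gene Ncr1 were listed at 0 in every library, which are 5 of the 10 T and NK markers. Of the other 5, Lck had from 12.6 to 22.3 TPM, Klrb1c from 3.31 to 7.37 and Cd3d and Trac at most 2.36, and Nkg7 was listed at 16.25 in Dido1∆E16 replicate 2 and at 0 elsewhere. The libraries differed in RNA of markers of other cells and stages. WT replicate 1 was high in genes of dividing cells, with a Top2a level of 503 TPM beside 45.7 TPM in WT replicate 2 and 189 and 255 TPM in the Dido1∆E16 libraries. Dido1∆E16 replicate 2 was high in neutrophil and red-cell RNA. The 12 neutrophil and monocyte markers summed to 274 and 2269 TPM in WT and to 1138 and 10020 TPM in Dido1∆E16 cells, led by S100a9. The 7 listed erythroid markers summed to 301 and 924 TPM in WT and to 682 and 8688 TPM in Dido1∆E16 cells, led by the haemoglobin gene Hba-a2. The 8 markers of pro-B and large pre-B cells, of which Vpreb1 had the highest mean over the 4 libraries but not the highest level in the WT libraries, summed to 1297 and 431 TPM in WT and to 2765 and 1957 TPM in Dido1∆E16 cells. Of these 8 genes, 5 had an unadjusted p under 0.05 in limma, all higher in Dido1∆E16 cells: Vpreb1, Vpreb2, Igll1, Dntt and Kit. These differences run beside every RNA result below, and their part in the results was not tested. In sorted bulk RNA, fewer cells of a type and less RNA per cell cannot be told apart.

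In LSK cells every promoter region of the family that both WT libraries shared was also covered in at least 1 Dido1∆E16 library, and the regions without a Dido1∆E16 peak lay outside promoters. Of all shared WT regions, 15.0% at promoters and 60.6% elsewhere had no Dido1∆E16 peak. The regions are first shown by their DNA. The promoter windows of Bcl2, Bcl2l1, Mcl1 and Bcl2l11 below are the 300 bases around a RefSeq start (GRCm38.p6), most of them before it, written 5′ to 3′ on the strand of the gene. For genes with more than 1 start, the window crossed by a MACS2 peak in the most libraries is given, and the windows shown had a peak in all 4 libraries for Mcl1 and Bcl2l11 and in 3 for Bcl2 and Bcl2l1. Capitals mark GGGCGG, the letters of a GC box, and GGAAGT, an Ets-type core, on either strand.
Bcl2 start, chr1:106714241-106714540, reverse strand: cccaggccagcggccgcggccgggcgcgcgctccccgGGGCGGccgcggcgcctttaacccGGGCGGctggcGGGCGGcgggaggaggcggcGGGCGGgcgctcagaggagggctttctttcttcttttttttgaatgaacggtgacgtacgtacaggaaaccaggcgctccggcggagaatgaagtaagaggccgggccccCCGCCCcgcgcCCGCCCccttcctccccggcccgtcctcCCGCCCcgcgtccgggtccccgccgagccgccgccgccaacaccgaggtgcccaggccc
Bcl2l1 upstream start, chr2:152831679-152831978, reverse strand: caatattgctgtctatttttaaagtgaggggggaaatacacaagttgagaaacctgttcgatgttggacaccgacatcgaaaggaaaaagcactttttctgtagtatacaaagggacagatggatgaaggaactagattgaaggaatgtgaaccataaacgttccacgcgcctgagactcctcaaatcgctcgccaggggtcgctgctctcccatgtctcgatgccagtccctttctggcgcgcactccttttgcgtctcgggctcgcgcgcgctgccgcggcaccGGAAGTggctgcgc
Mcl1 start, chr3:95658471-95658770, forward strand: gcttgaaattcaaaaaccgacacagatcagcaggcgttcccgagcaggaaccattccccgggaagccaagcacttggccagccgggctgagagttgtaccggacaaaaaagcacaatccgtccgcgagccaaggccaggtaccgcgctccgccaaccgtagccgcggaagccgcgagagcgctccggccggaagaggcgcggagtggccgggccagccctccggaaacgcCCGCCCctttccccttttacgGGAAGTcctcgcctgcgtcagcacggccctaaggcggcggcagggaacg
Bcl2l11 second start, chr2:128127325-128127624, forward strand: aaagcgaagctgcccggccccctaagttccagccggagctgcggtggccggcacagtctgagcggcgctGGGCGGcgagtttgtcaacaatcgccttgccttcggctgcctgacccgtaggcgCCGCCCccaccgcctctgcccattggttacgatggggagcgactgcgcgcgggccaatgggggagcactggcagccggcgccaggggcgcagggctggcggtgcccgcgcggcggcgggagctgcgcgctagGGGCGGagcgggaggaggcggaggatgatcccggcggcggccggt

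The window of Bcl2 held GGGCGG 7 times and that of Bcl2l11 3 times, against 1 match in Mcl1 and 0 in Bcl2l1. GGAAGT occurred once each in Bcl2l1 and Mcl1. Of all 32851 RefSeq promoter windows of 300 bases, 35.7% held GGGCGG and 23.8% held GGAAGT on either strand. Neither CAGGTG, an E-box (20.2% of all windows), nor TGTTTAC, a forkhead-type core (3.65%), was in these 4 windows. The G and C content of the Bcl2 window was 76%, that of Bcl2l11 74%, that of Mcl1 65.7% and that of Bcl2l1 52.3%, beside a median of 52.7% over all windows. The Bcl2 and Bcl2l11 windows were thus the most GC-rich of these 4. A match gives the letters only, and no binding was measured.

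Regions shared by both WT libraries, that is, overlaps of at least 1 bp between their MACS2 peaks, numbered 22 for the 10 genes, of 26327 in all. Of these 22 regions, 8 (36.4%) were crossed by no MACS2 peak of a Dido1∆E16 library, beside 43.7% of all regions. All 8 lay outside promoters: 0 of 8 promoter regions lacked a Dido1∆E16 peak, beside 15.0% of all 9755 promoter regions, and 8 of 14 other regions did, beside 60.6% of all 16572. The shares of the family were thus close to those of all regions, and nothing particular to the family is read from them. No p is given, since the regions of 1 library are not replicates, and an exact permutation test of 2 libraries against 2 cannot give a p below 0.333.

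The 8 regions were spread over 6 of the genes. Bcl2 had 2, both in its long intron 1, at 25.8 and 101 kb from the start. Bcl2l1, which encodes Bcl-xL, had 2 in an intron, both under a single peak of WT replicate 2. Mcl1 had 1 before its start, at -13.1 kb. Bak1 had 1 at 0.92 kb, in an intron that the annotation takes from a transcript other than those listed for Bak1. Bcl2l11 (Bim) had 1 in intron 4 at 27.0 kb, and Pmaip1 (Noxa) 1 before its start, at -47.9 kb. HOMER did call a peak in Dido1∆E16 replicate 2 over the regions of Mcl1, Bak1 and Bcl2l1. Over those of Bcl2, Bcl2l11 and Pmaip1 it called none in a Dido1∆E16 library. For Bcl2, Mcl1 and Bcl2l11, the region among these 8 that lay nearest to the start is shown. It is given as the 200 bases around its centre on the forward strand, with the same letters in capitals, to set beside the promoters above.
Bcl2 intron 1, chr1:106688256-106688455, forward strand: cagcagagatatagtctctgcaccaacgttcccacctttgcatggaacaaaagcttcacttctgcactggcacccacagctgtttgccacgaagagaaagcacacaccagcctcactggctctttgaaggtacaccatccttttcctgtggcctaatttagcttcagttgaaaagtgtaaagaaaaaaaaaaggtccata
Mcl1 upstream region, chr3:95645408-95645607, forward strand: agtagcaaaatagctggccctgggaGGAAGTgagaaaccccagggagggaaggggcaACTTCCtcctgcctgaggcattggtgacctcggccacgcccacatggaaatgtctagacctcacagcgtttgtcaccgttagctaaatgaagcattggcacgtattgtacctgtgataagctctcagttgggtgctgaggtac
Bcl2l11 intron 4, chr2:128153055-128153254, forward strand: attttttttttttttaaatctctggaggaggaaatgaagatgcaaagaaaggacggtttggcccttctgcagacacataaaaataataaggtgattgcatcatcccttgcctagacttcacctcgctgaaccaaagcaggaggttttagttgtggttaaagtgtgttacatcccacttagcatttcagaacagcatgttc

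These 3 sequences held no GGGCGG, which occurred in 10.7% of the 16572 shared WT regions outside promoters (200 bases around the centre, either strand). GGAAGT was found 2 times in the Mcl1 region and in none of the others, beside 29.9% of all such regions. CAGGTG (13.9% of all such regions) and TGTTTAC (2.47%) were in none of the 3. Their G and C content ran from 39.5% (Bcl2l11) to 53.5% (Mcl1), around a median of 50% for all such regions, and each lay below the promoter of its own gene.

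The regions without a Dido1∆E16 MACS2 peak had mostly low scores in WT replicate 1. In WT replicate 2 their scores were low to middling, below those of most regions with such a peak. In WT replicate 1, which gave fewer peaks, 7 of the 8 lay below the 30th percentile of MACS2 scores, from 4.42 (Bcl2l11) to 28.4 (Bcl2 at 25.8 kb and Mcl1). The region of Pmaip1 was the exception, at the percentile 73.2. In WT replicate 2 the 8 regions ran from 7.39 (Bak1) to 65.7 (Pmaip1), and 4 of them lay above the median score. Among these 4 are both Bcl2l1 regions, which share a single peak in that library. Regions with a Dido1∆E16 peak had low and high scores in WT replicate 1. The Bid intron region stood at the percentile 15.9, the Bcl2 promoter at 23.4, the Pmaip1 region at 12.1 kb at 28.4 and the Bid promoter at 33.4, while the promoter of Bcl2l1 stood at the percentiles 85.1 and 91.6 in WT replicates 1 and 2, and the Pmaip1 promoter at 81.0 and 86.4. The Bak1 promoter region, with a peak in Dido1∆E16 replicate 2, had the percentile 0.117 in WT replicate 1. In WT replicate 2 the Bak1 promoter (32.3) and the Bid intron region (43.5) were the lowest regions with a Dido1∆E16 peak. The others ran from 66.3 (Bcl2 promoter) to 93.5 (Bmf), above all 8 regions without one. The part of peak strength in the missing regions was not tested.

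The peak lists differed in size, and counts per gene are given beside that. WT replicate 2 held the most peaks of any library for 8 of the 10 genes and shared the highest count for Bax and Bak1. Bcl2 had 3 and 13 peaks in WT replicates 1 and 2 against 3 and 1 peaks in the mutant libraries, so the groups overlapped. Bcl2l1 had 3 and 5 against 2 and 2 peaks, Bcl2l11 had 3 and 6 against 2 and 1, Pmaip1 had 6 and 7 against 3 and 4, and Bak1 had 2 and 2 against 0 and 1. For these 4 genes each Dido1∆E16 library held fewer peaks than each WT library, and 0 had more, beside 35.6% and 0.191% of the 17769 genes with a peak. The 4 of 10 is thus close to the share of all genes.

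**Figure D1:**
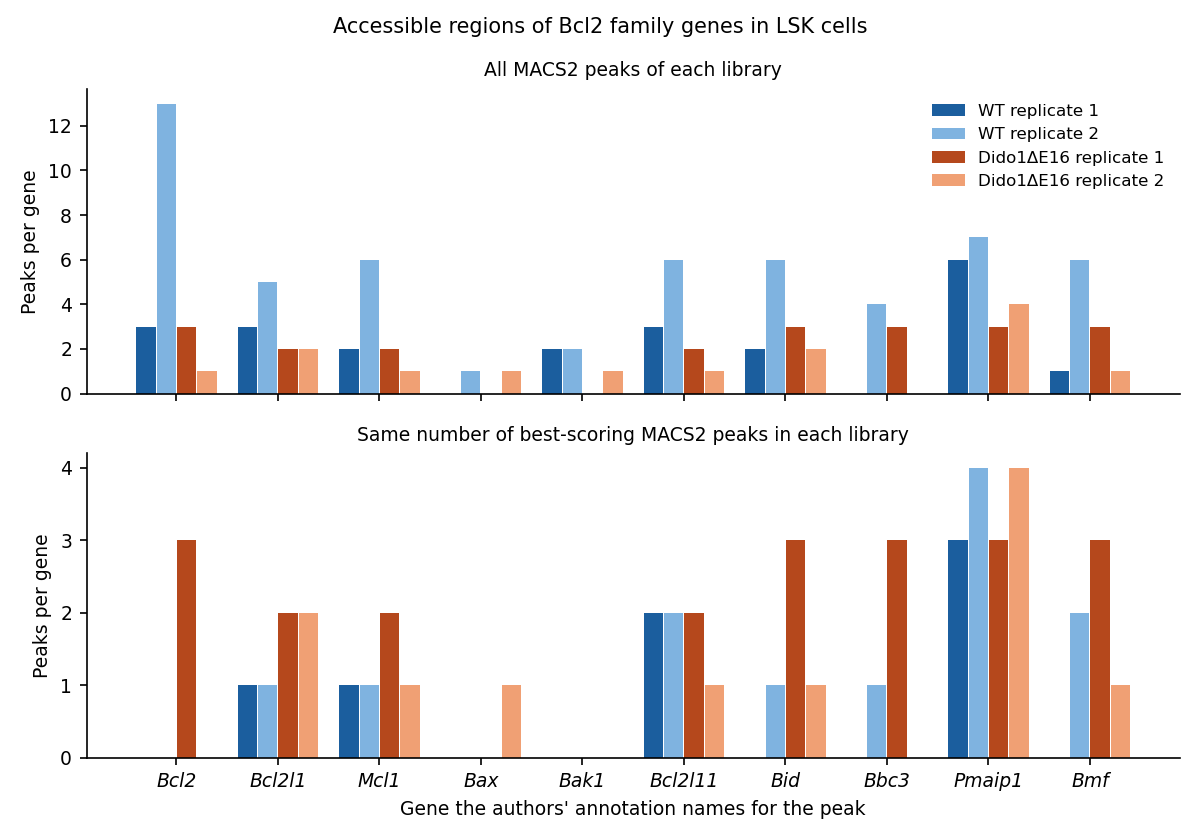
MACS2 peaks per gene (vertical axis, number of peaks) for the 10 genes in the 4 LSK libraries, with 1 bar per library. Upper panel: all peaks, where Bcl2 reaches 13 in WT replicate 2 and Bcl2l1, Bak1, Bcl2l11 and Pmaip1 are lower in both Dido1∆E16 libraries. Lower panel: the 13208 top-scoring peaks per library, which are all peaks of Dido1∆E16 replicate 1. Here none of the 10 is lower in both.

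The count of 4 genes differed with other peak sets. One set kept the 13208 top-scoring peaks per library, which is the full list of Dido1∆E16 replicate 1. That library thus kept its weak peaks, while WT replicate 2 kept only its best 13208 of 57739. When only the 13208 top-scoring peaks per library were kept, 0 of the 10 genes had fewer peaks in both Dido1∆E16 libraries (7.16% of 12884 genes) and 1 had more (6.57%), namely Bcl2l1 with 1 and 1 against 2 and 2 peaks. With the peaks that HOMER called, 1 gene had fewer, Pmaip1 with 6 and 8 against 3 and 4 peaks, beside 19.5% of 18321 genes. Pmaip1 was the gene with the lower order under both callers. In the authors' lists of differential regions, which were drawn from these same libraries and are given only as a description, 3 entries of 5231 and 8540 in the 2 lists belong to the 10 genes, all to Pmaip1. They overlap the regions at 12.1 and 19.5 kb after its start. In 1 of these lists the region at 12.1 kb has log2 tag counts of 6.33 and 6.39 for the WT libraries and of 5.41 and 5.71 for the Dido1∆E16 libraries.

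At the start sites no gene had a peak in both libraries of 1 genotype and in neither of the other. A window from 1000 bp before to 200 bp after the start of each gene's main transcript held a MACS2 peak in 7 of the 10 genes in WT replicate 1, 10 in WT replicate 2, 8 in Dido1∆E16 replicate 1 and 6 in Dido1∆E16 replicate 2. For all 11845 expressed genes the shares were 71.5%, 84.2%, 63.6% and 61.3% in the same order. Bcl2l1, Mcl1, Bid and Pmaip1 had such a peak in all 4 libraries, as did 54.4% of the expressed genes. Bbc3 and Bmf lacked one in WT replicate 1 and in Dido1∆E16 replicate 2, so its absence did not go with the genotype. Bax lacked one in WT replicate 1 and Dido1∆E16 replicate 1. Bak1 lacked one in Dido1∆E16 replicate 1, and Bcl2 lacked one in Dido1∆E16 replicate 2. Bcl2l11 lacked one at its first start in Dido1∆E16 replicate 2 and had a peak in all 4 libraries at the second start, whose sequence is shown above. With HOMER peaks, 8 of the 10 windows were covered in all 4 libraries, beside 59.9% of all, and those of Bax and Bak1 were covered in WT replicate 2 and Dido1∆E16 replicate 2.

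**Figure D2:**
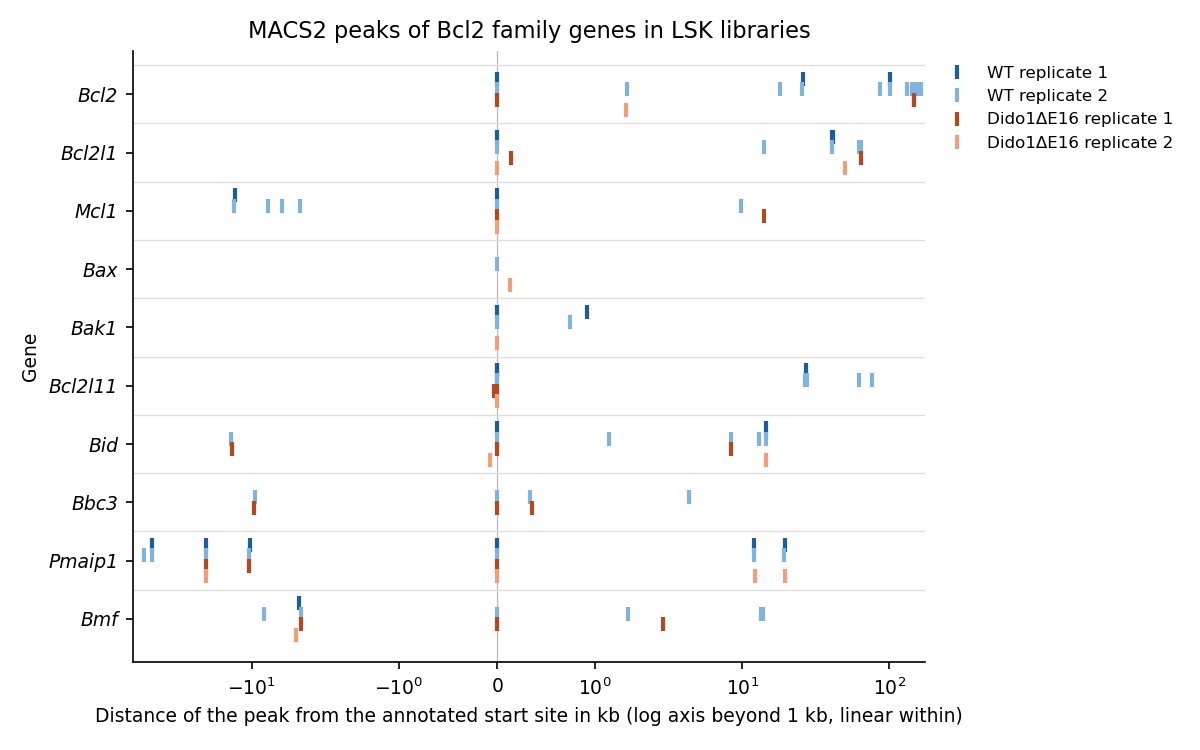
Distance of each MACS2 peak from the start site its annotation names (horizontal axis in kb, logarithmic beyond 1 kb and linear within), by gene and LSK library. Marks at 0 are promoter peaks; the regions of Bcl2 at 25.8 and 101 kb and of Bcl2l11 at 27.0 kb carry WT marks and no Dido1∆E16 mark.

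In pre-B cells the family was led by Mcl1, Bcl2l1 and Bmf and closed by Bcl2. The mean over 4 libraries was 474.5 TPM for Mcl1, 472.5 for Bcl2l1, 285 for Bmf, 224 for Bak1, 162 for Bax, 32.8 for Bcl2l11, 26.2 for Bbc3, 24.5 for Bid, 7.61 for Pmaip1 and 2.38 for Bcl2. Of neighbours in this order, Bcl2l1 and Bmf, Bak1 and Bax, Bax and Bcl2l11, and Bid and Pmaip1 had ranges over the libraries that did not overlap. The ranges of Mcl1 and Bcl2l1, of Bmf and Bak1, of Bcl2l11 and Bbc3, of Bbc3 and Bid, and of Pmaip1 and Bcl2 overlapped. Mcl1 and Bcl2l1 lay at the percentile 97.7 of the 11845 genes, and Bcl2 at the percentile 8.22.

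**Figure D3:**
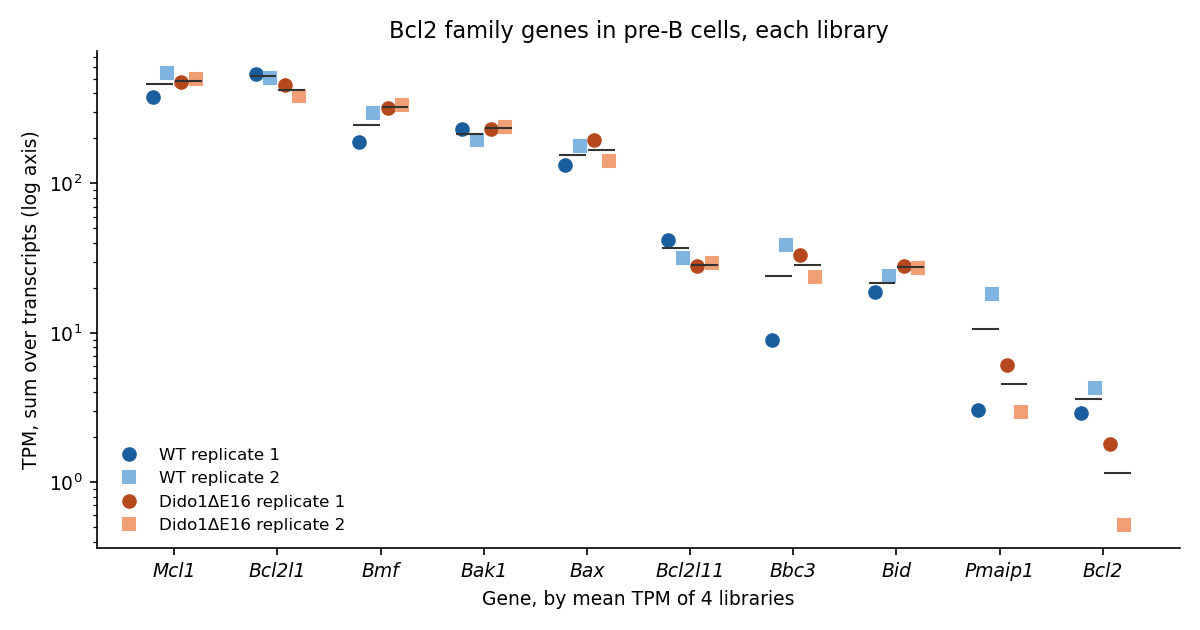
TPM summed over the transcripts of each gene (vertical axis, logarithmic) in the 4 pre-B libraries, with a line at the mean of each genotype (n = 2), genes ordered by mean TPM. Both Dido1∆E16 points lie below both WT points for Bcl2, Bcl2l1 and Bcl2l11 and above them for Bid and Bmf, and WT replicate 1 is the low library for Bbc3.

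None of the 10 genes was called between the genotypes. The levels as log2(TPM + 1) were fitted with limma over all 11845 genes, and a call needed a Benjamini-Hochberg adjusted p under 0.05 over all genes together with a log2 fold change of 0.6 or more in size. Calls of higher levels in Dido1∆E16 cells numbered 3 (0.0253%) across all genes, namely Ndufa5, Serpina3g and Tex45, and calls of lower levels 3 (0.0253%), namely Lamtor1, Mrpl42 and Smim11. Of these 6 genes, 4 were listed at 0 in both libraries of 1 genotype: Ndufa5 and Tex45 in WT and Mrpl42 and Smim11 in Dido1∆E16 cells. The calls numbered 0 and 0 with the replicate block or a pseudocount of 0.1, and 76 and 14 with eBayes without a trend. An unadjusted p under 0.05 was reached by 8.64% of all genes with a higher and by 3.05% of all genes with a lower level in Dido1∆E16 cells, and by 0 of the 10 genes. In 2 of the 10 genes both Dido1∆E16 libraries lay above both WT libraries, and in 3 below, beside 27.2% and 15.6% of all genes. The median log2 fold change was 0.107 over the 10 genes and 0.069 over all genes.

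**Figure D4:**
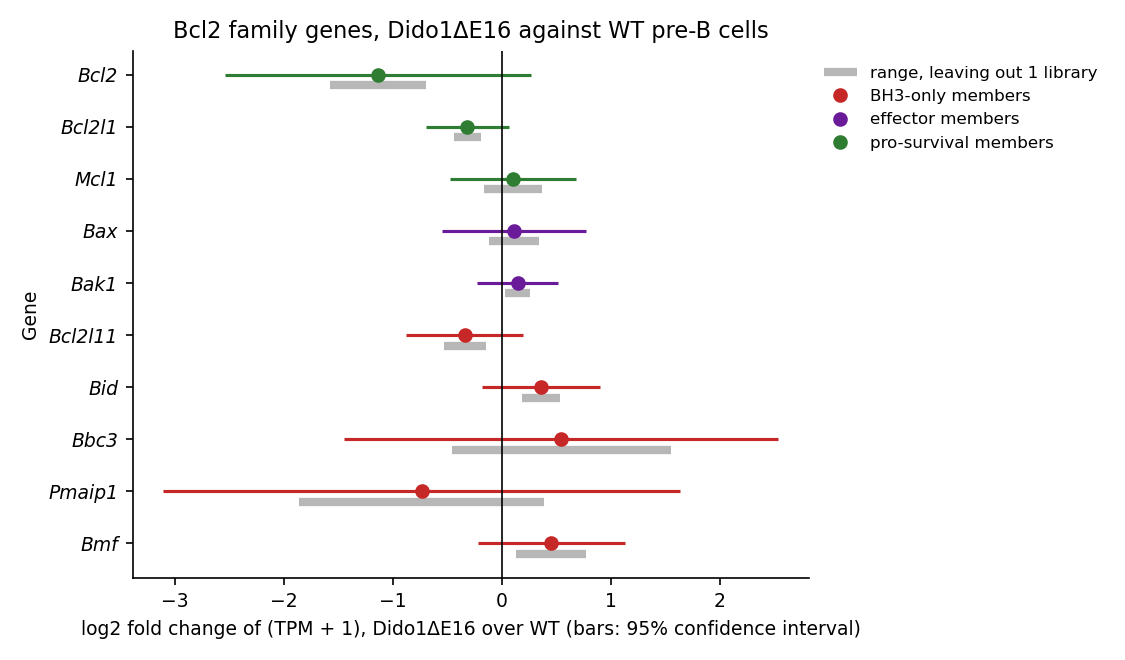
Log2 fold change of (TPM + 1), Dido1∆E16 over WT, for each gene (points), with the 95% confidence interval from limma (coloured lines) and the range when each of the 4 libraries is left out in turn (grey bars). All 10 intervals include 0, and the grey bars of Mcl1, Bax, Bbc3 and Pmaip1 cross 0.

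Bcl2, the founding member of the family, protects resting lymphocytes, and its RNA is known to be low in pre-B cells and higher in mature B cells. The level of Bcl2 was 2.89 and 4.30 TPM in WT replicates 1 and 2 against 1.80 and 0.516 TPM in those of Dido1∆E16 (chromosome 1, 106538176 to 106714290). Both Dido1∆E16 libraries lay below both WT libraries. Its log2 fold change was -1.14 with a standard error of 0.515, a 95% confidence interval from -2.54 to 0.265 and an adjusted p of 0.515 from limma. It ran from -0.696 without Dido1∆E16 replicate 2 to -1.58 without Dido1∆E16 replicate 1 (unadjusted p = 0.033 and adjusted p = 0.465 in limma), and it was -1.74 with a pseudocount of 0.1. The aligned bases behind these values were few, from 0.507 kb in Dido1∆E16 replicate 2 to 13.2 kb in WT replicate 2. The 2-exon transcript uc007cgw.3, whose exon chain codes for 236 amino acids in GENCODE M21, was listed at 3.75 TPM in WT replicate 2 and at 0 in the other 3 libraries. Those 3 libraries carried only uc011wqb.3, a single exon around the start of the gene. The exon at the far end of the gene (106538176 to 106543398) was thus listed above 0 in 1 of 4 libraries. Of the tested genes, 12.1% were listed at 0 in at least 1 library, Ndufa5 and Mrpl42 among them. Whether a listed 0 is absent RNA or a failed estimate was not tested. With the higher of the 2 transcripts alone, the log2 fold change was -0.250. Markers of mature B cells had lower or higher values beside Bcl2: of the 7 listed, Fcer2a (65.6 and 63.6 TPM in WT against 29.1 and 46.7) and Cr2 (3.72 and 1.94 against 1.39 and 1.73) were lower in both Dido1∆E16 libraries, and Cd40 was among those higher in both. The unadjusted p in limma was 0.0381 for Fcer2a (adjusted p = 0.388) and above 0.05 for the other 6. The plasma and memory markers also went both ways. Sdc1 (121 and 102 against 64.4 and 57.04 TPM, unadjusted p = 0.00455 and adjusted p = 0.22 in limma) had lower values. So did Cd38 (338 and 321 against 244 and 252 TPM, unadjusted p = 0.0195 and adjusted p = 0.326). Cd80 was higher in both Dido1∆E16 libraries (0.176 and 0.296 against 2.62 and 1.46 TPM, unadjusted p = 0.069 and adjusted p = 0.479). Xbp1 and Prdm1 overlapped between the genotypes. The part of these markers in the level of Bcl2 was not tested.

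Bcl2l1 gives Bcl-xL, the pro-survival protein on which pre-B cells are known to lean. It was measured at 536.5 and 511 TPM in WT and at 458 and 385 TPM in Dido1∆E16 cells (chromosome 2, 152758732 to 152831728). The groups did not overlap, and the mean in Dido1∆E16 cells was 421.5 ± 51.5 TPM (SD, n = 2) beside 524 ± 18.3 (SD, n = 2) in WT. The log2 fold change of -0.32 (standard error 0.139, interval -0.696 to 0.0618) had the smallest unadjusted p of the 10 genes in limma, 0.0815, and an adjusted p of 0.503. After each library was centred to the median of all genes, the change was -0.402 with an unadjusted p of 0.0331 and an adjusted p of 0.389 in limma, while over all alternatives the adjusted p ran from 0.386 to 1.0. The change ran from -0.797, with the symbols of the files only, to 0.0431.

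The transcripts of Bcl2l1 were divided differently in WT replicate 1. The transcript uc008ngl.2, whose exon chain codes for 233 amino acids, was listed at 241 and 434 TPM in WT and at 356 and 312 TPM in Dido1∆E16 cells. The transcript uc033hqv.1, which shares its first exons with uc008ngl.2 and ends elsewhere, was listed at 225.5, 76.0, 101 and 72.5 TPM in the same order. Its own 3 last exons had a scaled coverage of at most 1.30 in any library, so nearly all of its value sat on shared exons. Coverage of the exons themselves, summed over the transcripts that share them, was more even. The large coding exon (152829427 to 152830102) had 399 and 401.5 in WT and 436 and 376.5 in Dido1∆E16 cells, and these values overlapped. The last exon (152780664 to 152782282) had 494 and 571 against 456 and 387.5, and the first exon of uc008ngl.2 (152830386 to 152830717) 175.5 and 163.5 against 146 and 129. The lower level of the gene sum was thus found at both ends of the transcript and not in the exon between them. From the mean coverage over all exon bases the log2 fold change was -0.246, and for uc008ngl.2 alone it was 0.0431. The upstream first exon (152831603 to 152831728), which lies in the region open in LSK cells, had a coverage of at most 3.26 in any pre-B library.

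**Figure D5:**
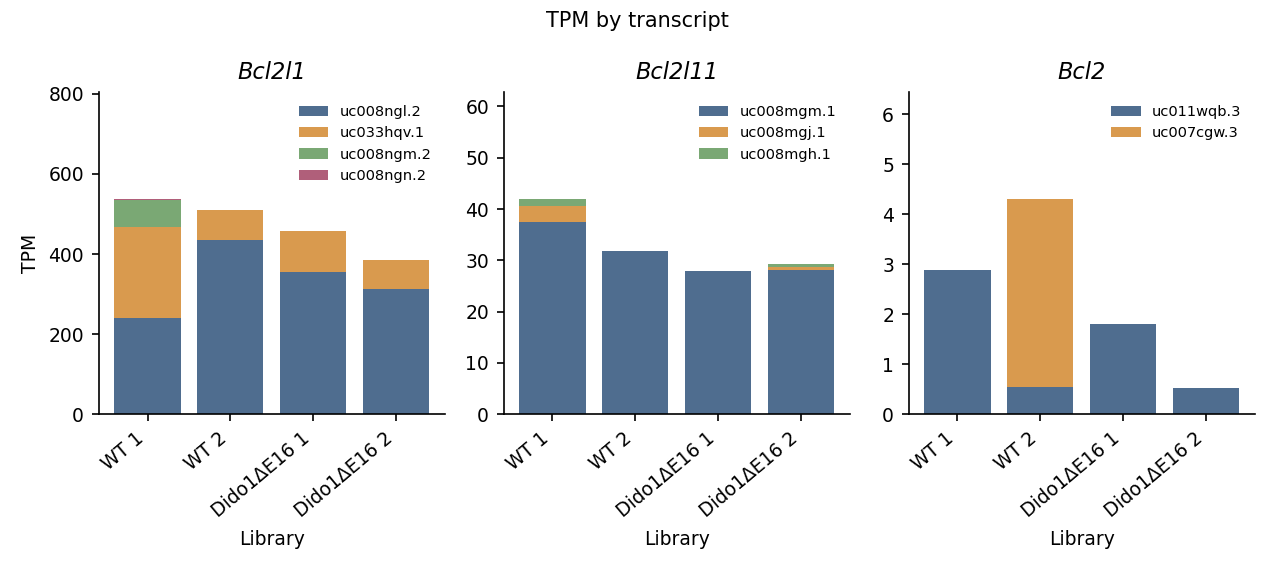
TPM (vertical axis) of each transcript listed above 0 for Bcl2l1, Bcl2l11 and Bcl2, stacked, in the 4 pre-B libraries. In Bcl2l1 the share of uc008ngl.2 is 44.9% in WT replicate 1 and 77.7% to 85.0% in the others; in Bcl2 the transcript uc007cgw.3 is seen in WT replicate 2 alone.

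Among the 8686 other genes with a mean of at least 10 TPM, those whose pattern over the 4 libraries came nearest to Bcl2l1 were Zfp787, Suox and Slc1a5. Nearness is the Euclidean distance of centred log2(TPM + 1) values, and it was 0.0222, 0.0274 and 0.0296. Zfp787 had 50.9 and 48.9 TPM in WT and 42.9 and 36.4 TPM in Dido1∆E16 cells. With 4 libraries many genes can share a pattern.

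Mcl1, a short-lived protein needed by B-cell precursors, did not separate the genotypes. It had 378 and 545 TPM in WT and 478 and 497.5 TPM in Dido1∆E16 cells (chromosome 3, 95658721 to 95663179), so both Dido1∆E16 libraries lay between the WT libraries. The log2 fold change was 0.10 (interval -0.476 to 0.682, adjusted p = 0.891 from limma). In Dido1∆E16 replicate 2, 11.2% of the sum came from uc029unq.1, a single exon of 204 bp at the end of the gene that was at most 0.0798 TPM elsewhere. Without WT replicate 1 the sign turned, to -0.161. Mcl1 took 41.2% and 51.4% of the summed TPM of the 3 pro-survival genes in WT and 51.0% and 56.3% in Dido1∆E16 cells, while Bcl2l1 took 58.5% and 48.2% against 48.9% and 43.6%. Bcl2 took at most 0.405% in any library. The sum of the 3 genes was 917 and 1060 TPM in WT and 937 and 883 TPM in Dido1∆E16 cells, and these values overlapped.

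The effectors Bax and Bak1, either of which can permeabilise the mitochondrion, overlapped between the genotypes. Bax had 133 and 178 TPM in WT and 195 and 142 TPM in Dido1∆E16 cells (chromosome 7, 45461695 to 45466898). Bak1 had 231 and 196 TPM in WT and 230 and 240 TPM in Dido1∆E16 cells (chromosome 17, 27019812 to 27028626). Neither gene separated the genotypes. The log2 fold change was 0.11 for Bax (interval -0.549 to 0.770) and 0.14 for Bak1 (interval -0.228 to 0.514), with adjusted p-values of 0.896 and 0.733 from limma. These intervals leave room for a change of Bax by up to 0.770 and of Bak1 by up to 0.514 log2 units. Without Dido1∆E16 replicate 1 the value of Bax was -0.119, and without WT replicate 1 it was -0.101. That of Bak1 was 0.0258 without WT replicate 2 and 0.26 without WT replicate 1. Bak1 was the more abundant effector in all 4 libraries, with a ratio of Bax to Bak1 of 0.576 and 0.911 in WT and of 0.850 and 0.590 in Dido1∆E16 cells.

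Of the BH3-only genes, Bmf and Bid had higher and Bcl2l11 lower values in both Dido1∆E16 libraries. Bmf, whose protein is held at the cytoskeleton until it is released, had 190 and 298 TPM in WT and 318 and 335 TPM in Dido1∆E16 cells (chromosome 2, 118528757 to 118549678). Its log2 fold change was 0.45 (standard error 0.248, interval -0.223 to 1.13, adjusted p = 0.592 from limma). WT replicate 1 was the low library, and without it the change was 0.131. Without WT replicate 2 it was 0.774, with an unadjusted p of 0.00531 and an adjusted p of 0.305 in limma. Bmf made up from 72.4% to 80.1% of the summed TPM of the 5 BH3-only genes in each library, so it set their sum.

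Bid links death receptors to the mitochondrion once caspase-8 has cut it. It had 18.75 and 24.1 TPM in WT and 27.9 and 27.2 TPM in Dido1∆E16 cells (chromosome 6, 120893119 to 120916820). On the log2 scale the difference was 0.36 (standard error 0.198, interval -0.182 to 0.901, adjusted p = 0.594 from limma). It was 0.187 without WT replicate 1 and 0.532 without WT replicate 2, where the unadjusted p in limma was 0.0446 and the adjusted p 0.347. The Dido1∆E16 libraries lay close together, with a mean of 27.6 ± 0.459 TPM (SD, n = 2), above 21.4 ± 3.78 (SD, n = 2) in WT.

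Bcl2l11 encodes Bim, the BH3-only protein known to remove lymphocytes that lose survival signals or recognise self. It had 41.9 and 31.9 TPM in WT and 27.9 and 29.4 TPM in Dido1∆E16 cells (chromosome 2, 128126038 to 128162547). On the log2 scale the difference was -0.34 (standard error 0.198, interval -0.882 to 0.197, adjusted p = 0.610 from limma). It was -0.151 without WT replicate 1 and -0.534 without WT replicate 2, where the unadjusted p in limma was 0.0368 and the adjusted p 0.336. At least 89.3% of its TPM in every library was uc008mgm.1, whose exon chain codes for 196 amino acids in GENCODE M21. The chains for the shorter forms of 140 and 110 amino acids, uc008mgk.1 and uc008mgl.1, were listed at 0 in all 4 libraries. Bim is known to act as an extra-long, a long and a short form, and the estimates placed the RNA on the longest chain in both genotypes. With no read counts in the files, a 0 does not show that the shorter forms were absent. The last exon had a scaled coverage of 38.1 and 29.2 in WT and of 27.2 and 28.1 in Dido1∆E16 cells. The exon before it, of 110 bases, had 13.8 and 36.1 against 24.4 and 29.7, and these values overlapped.

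Bbc3 (Puma) and Pmaip1 (Noxa) are the BH3-only targets of p53. Bbc3 had 8.95 and 39.0 TPM in WT and 33.2 and 23.7 TPM in Dido1∆E16 cells (chromosome 7, 16309583 to 16318334). Pmaip1 had 3.07 and 18.3 TPM in WT and 6.12 and 2.97 TPM in Dido1∆E16 cells. For both genes the WT libraries stood farther apart than the genotypes. The log2 fold change was 0.54 for Bbc3 (interval -1.45 to 2.54) and -0.74 for Pmaip1 (interval -3.11 to 1.63), with adjusted p-values of 0.817 and 0.785 from limma. Without WT replicate 1 that of Bbc3 turned to -0.459, and without WT replicate 2 that of Pmaip1 turned to 0.385. These 2 libraries differ, as given above, in genes of dividing cells, and the part of that difference was not tested.

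The sums of the groups were also set side by side. The 5 BH3-only genes summed to 263 and 411 TPM in WT and to 413 and 418 TPM in Dido1∆E16 cells. Divided by the sum of the pro-survival genes, this gave 0.287 and 0.388 in WT and 0.441 and 0.473 in Dido1∆E16 cells. Both Dido1∆E16 ratios were above both WT ratios, by less than the gap between the WT ratios when the nearest libraries are compared. The effector sum over the pro-survival sum was 0.396 and 0.353 in WT and 0.453 and 0.432 in Dido1∆E16 cells. These ratios are of RNA and have no test.

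Of 16 other genes of the family, 8 reached a mean of 1 TPM, and 0 were called. Bnip3l, a receptor for the removal of mitochondria, was the most abundant of these, with 125 and 118 TPM in WT and 106 and 119 TPM in Dido1∆E16 cells. Bad, a BH3-only gene controlled by phosphorylation, had 37.6 and 45.3 against 53.55 and 49.5 TPM. Bcl2l2, which encodes the pro-survival protein Bcl-w, was listed at 0 and 2.27 TPM in WT and at 9.16 and 6.14 TPM in Dido1∆E16 cells. Its difference on the log2 scale was 2.24 (standard error 0.703), with an unadjusted p of 0.0314 and an adjusted p of 0.367 from limma. It was the only gene of this list with an unadjusted p under 0.05, beside 8.64% of all genes with a higher level. With a pseudocount of 0.1 no gene of the list was under 0.05. When 1 library was left out, which leaves 1 in its genotype, the counts in both directions changed. The median log2 fold change of the 8 genes was -0.236. Bcl2a1b, a pro-survival gene induced by NF-kB, was listed at 5.68 TPM in WT replicate 2 and at 0 elsewhere. It has near-identical copies, between which reads may be split, and Bcl2a1a, Bcl2a1c and Bcl2a1d were listed at 0 throughout. Bnip3, a hypoxia-induced relative of Bnip3l, had from 24.6 to 29.1 TPM in 3 libraries and was listed at 0 in Dido1∆E16 replicate 2. Bcl2l12 had 53.9 and 45.7 against 46.5 and 31.9 TPM, Bcl2l13 had 38.25 and 27.8 against 36.3 and 35.7, and Bcl2l14 was listed at no more than 2.20 TPM. Bik, Hrk and Bcl2l10 were listed at 0 in all 4 libraries.

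Downstream of the mitochondrion, 19 genes of the apoptosome, the caspases and their inhibitors were all measured, and 0 were called. Diablo, whose protein frees caspases from their inhibitors, had 56.8 and 55.9 TPM in WT and 43.9 and 31.8 TPM in Dido1∆E16 cells, a log2 fold change of -0.58 (standard error 0.206, unadjusted p = 0.0457 and adjusted p = 0.415 from limma). It was the only gene of the list under 0.05, beside 3.05% of all genes with a lower level. The count with lower values was 0 with the replicate block or with eBayes without a trend, and 2 with median-centring. Counts in both directions changed when 1 library was left out, which leaves 1 in its genotype. Naip5, which had the smallest p among genes with higher values, had 3.47 and 2.43 against 6.39 and 4.55 TPM. Birc3, an inhibitor of apoptosis that NF-kB induces and the most abundant of the list, had 201 and 265 TPM in WT and 283 and 303 TPM in Dido1∆E16 cells. The median log2 fold change of the list was 0.103, beside 0.069 for all genes.

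Of 11 death receptor genes 10 were tested, 0 were called, and 2 had an unadjusted p under 0.05, both higher in Dido1∆E16 cells (8.64% of all genes). The count was 1 with median-centring or FPKM, and 3 with eBayes without a trend. It also changed when 1 library was left out, which leaves 1 in its genotype. The median log2 fold change of the 10 genes was 0.164. Tnfsf10, which encodes the death ligand Trail, had 2.41 and 0.768 TPM in WT and 15.3 and 9.42 TPM in Dido1∆E16 cells. Its log2 fold change was 2.41 (standard error 0.489, unadjusted p = 0.00703 and adjusted p = 0.237 from limma). Tnfrsf1a, a receptor for tumour necrosis factor, was listed at 0 in both WT libraries and at 1.70 and 13.1 TPM in Dido1∆E16 replicates 1 and 2, the latter being the library high in neutrophil RNA. Casp8, the caspase at these receptors, was the most abundant of the list with 99.1 and 75.2 against 104 and 94.9 TPM. Cflar, the inhibitor of caspase-8, had the smallest p among genes with lower values, with 27.3 and 20.6 against 24.5 and 19.5 TPM. Fasl was listed at 0 throughout.

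The regulators of BH3-only transcription, p53, Foxo and their neighbours, gave 0 calls among 12 genes tested of 13. Ccng1, a p53 target, had 74.8 and 61.6 TPM in WT and 95.9 and 94.1 TPM in Dido1∆E16 cells, a log2 fold change of 0.48 (standard error 0.153, unadjusted p = 0.0330 and adjusted p = 0.369 from limma). It was the only one under 0.05, beside 8.64% of all genes with a higher level, and the median of the list was 0.080. The count with higher values was 0 with eBayes without a trend. That with lower values, 0 here, was 1 with the replicate block. Both changed when 1 library was left out, which leaves 1 in its genotype. Mdm4, which restrains p53, had 111.5 and 74.8 against 74.6 and 51.7 TPM and the smallest p among genes with lower values. Trp53 itself was the most abundant, with 353 and 292 against 345 and 336 TPM, which overlapped.

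Of 13 genes for the turnover and binding of Mcl1 and Bim, 0 were called and 1 had an unadjusted p under 0.05, and the median log2 fold change was 0.0975. The 1 gene had a lower level, beside 3.05% of all genes with a lower level at this threshold. The count with lower values was 0 with the replicate block or with eBayes without a trend, and 2 with GENCODE genes by position. In both directions the counts changed when 1 library was left out, which leaves 1 in its genotype. Ywhaz, a 14-3-3 protein that binds phosphorylated Bad and Bim and the most abundant of the list, had 502 and 519 TPM in WT and 410 and 396 TPM in Dido1∆E16 cells. Its log2 fold change was -0.34 (standard error 0.109, unadjusted p = 0.0331 and adjusted p = 0.369 from limma). Usp9x, which removes ubiquitin from Mcl1, had 30.1 and 15.7 against 30.9 and 40.8 TPM and the smallest p among genes with higher values.

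Of 18 genes of survival signalling in B-cell precursors, 4 had an unadjusted p under 0.05, all higher in Dido1∆E16 cells (8.64% of all genes), and 0 were called. Their names are Pim2, Stat5a, Jak3 and Il2rg. Pim2, a kinase that Stat5 induces, had 336 and 365 TPM in WT and 544 and 542 TPM in Dido1∆E16 cells, a log2 fold change of 0.63 (standard error 0.114, unadjusted p = 0.00455 and adjusted p = 0.22 from limma). Stat5a had 32.2 and 31.8 against 52.7 and 55.4 TPM, Jak3 had 28.7 and 21.5 against 35.1 and 43.3 TPM, and Il2rg, the common chain of the receptor, had 231.5 and 230 against 295 and 299 TPM. Il7r itself had 442 and 313 against 468 and 392 TPM, Jak1 had 219 and 190 against 200.4 and 249, Stat5b had 59.5 and 50.2 against 61.3 and 71.6, and Pim1 had 434 and 1085 against 623 and 430. Of these 4 genes, Il7r, Jak1 and Pim1 overlapped between the genotypes, and none had an unadjusted p under 0.05. Rela, an NF-kB subunit, had 178 and 183 against 163 and 157 TPM and the smallest p among genes with lower values. The median of the list was 0.167. With median-centring, with the replicate block or with eBayes without a trend, 2 genes of the list were under 0.05 with higher values. Leaving out 1 library, which leaves 1 in its genotype, changed the counts in both directions. Of the 8 pro-B and large pre-B markers given above, 5 were higher in both Dido1∆E16 libraries, while Il2ra, Mki67 and Top2a overlapped. The part of the stage was not tested.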

How the data were processed

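Pre-B RNA-seq and LSK Omni-ATAC-seq were analysed (2 WT and 2 Dido1∆E16 libraries each). The authors aligned reads to GRCm38/mm10 with BWA 0.7.15 or Bowtie2. The deposited StringTie files hold TPM, FPKM and coverage per UCSC transcript, without read counts, and depth was 1581 and 1121 aligned Mb for WT against 1635 and 1173 for Dido1∆E16. For ATAC-seq the authors removed duplicates, called peaks per library with MACS2 (deposited with a score) and HOMER, and annotated them with ChIPseeker. Their deposited lists of differential regions hold log2 tag counts and totals of 10249256 and 52050898 tags for WT against 22533077 and 44633938 for Dido1∆E16. Their fold changes and p-values were not used.

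TPM was summed per gene by the symbols in the files. These cover 11781 of the 16372 transcripts at 1 TPM or more on average, and GENCODE M21 genes holding at least 50% of a transcript's exonic bases raised this to 15918 (where both gave a symbol, 97.0% were the same), a step chosen after seeing the files. Without this step the main transcripts of Bcl2l1, Bcl2l11 and Bak1 have no symbol. Log2(TPM + 1) of the 11845 genes with a mean TPM of at least 1 entered limma 3.58.1 (R 4.3.3, eBayes with a trend, no block, Benjamini-Hochberg adjustment), since a count test needs counts. Fold changes understate those of low genes. The fit was tested on simulated data. Peaks were compared with bedtools 2.31.1, and scores ranked within a library. Figures used matplotlib 3.10.9.

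The members and lists were chosen with earlier results of these data known. All members are named. Of each list those named are other family genes with a mean TPM of at least 1, called genes or the genes with the smallest p in each direction and the highest level, and further genes with an unadjusted p under 0.05, chosen after their values were seen. Il7r, Jak1, Stat5b, Pim1, Top2a, the single markers, the called genes and the genes at 0 were also chosen then. Of the other marker lists, small pre-B markers summed to 7921 and 8351 TPM for WT against 8462 and 9534 for Dido1∆E16 (led by Cd74), mature B-cell markers to 1084 and 1351 against 1206 and 1317 (Ms4a1), plasma and memory markers to 583 and 601 against 470.5 and 480 (Cd38), T and NK markers to 29.25 and 23.2 against 21.4 and 41.25 (Lck), and stem and progenitor markers to 27.7 and 20.1 against 18.7 and 10.6 (Ly6a, with Hoxa9, Mecom and Gata2 at 0). Ighd, Hba-a1 and Hbb-bt were not listed under these symbols. Some items are not reported here.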

Additional observations from a re-analysis of the deposited data

How the results depend on the processing

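None of the 10 genes was called under any alternative to the limma fit or at the stricter threshold (adjusted p under 0.01, absolute log2 fold change of at least 1), at which 0 genes of the whole table were called higher and 0 lower. The sign of the log2 fold change was kept in 141 of 147 values of the 10 genes. It turned for Bcl2l1 with the highest transcript alone (0.0431), for Mcl1 without WT replicate 1 (-0.161), for Bax without WT replicate 1 (-0.101) or Dido1∆E16 replicate 1 (-0.119), for Bbc3 without WT replicate 1 (-0.459) and for Pmaip1 without WT replicate 2 (0.385). When each library was left out in turn, the value of Mcl1 ran from -0.161 to 0.367, that of Bax from -0.119 to 0.34, that of Bbc3 from -0.459 to 1.55 and that of Pmaip1 from -1.86 to 0.385. Leaving out 1 library leaves 1 in its genotype, which is then assumed to vary like the others. With median-centring 1 of the 10, Bcl2l1, had an unadjusted p under 0.05 in limma, with a lower value. Of all 11845 genes, 560 had a lower value at this threshold in that fit. The median of all genes went from 0.069 to -0.0155.

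The counts of the whole table, 3 higher and 3 lower, went to 0 and 0 with a pseudocount of 0.1, without a filter, and with the replicate block. They were 76 and 14 with eBayes without a trend, 6 and 5 with the highest transcript, 2 and 1 with exon coverage, and 6 and 3 with the symbols of the files only, an alternative chosen after seeing the data. No label says that a replicate number marks a shared batch. Deviations of same-numbered libraries correlated at 0.0538 over genes, and with the replicate block 0 of the 10 genes had an unadjusted p under 0.05.

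Of the peak results, the genes with fewer peaks in both Dido1∆E16 libraries numbered 4 (35.6% of all genes). They numbered 1 with HOMER peaks (19.5%), 0 with the same number of best-scoring peaks (7.16%) and 0 with promoter peaks only (11.3%). When a library was left out they numbered from 4 to 9 (9 without WT replicate 1, beside 74.65% of all genes). The genes with more peaks numbered 0, and 1 with the best-scoring peaks. Of the shared WT regions, 8 of 22 lacked a Dido1∆E16 peak, 8 of 22 with an overlap of at least 50% (44.5% of all regions), 7 of 29 with HOMER peaks (29.3%) and 0 of 6 with the best-scoring peaks (13.3%). With FPKM, Bcl2 did not pass the filter on low values.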
